A study of Mus musculus with 2 samples.

Results

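Aminoacyl-tRNA synthetases, the enzymes that load each amino acid onto its transfer RNA, were followed in mouse embryonic fibroblasts given the solvent DMSO or celastrol. The set was a list of 36 genes, 20 for cytosolic and 16 for mitochondrial enzymes, chosen by gene symbol. For 34 of them, 18 cytosolic and 16 mitochondrial, the array held a probe set annotated to that gene only, out of 19946 genes with such a probe set. Mars was found under its newer symbol Mars1. The probe set for Aars also names Exosc6, so Aars entered no count, and Dars was not analysed here.

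Both cultures were mouse embryonic fibroblasts, and the cells carried an adenovirus with LacZ, a bacterial reporter gene. One received DMSO and the other 250 nM celastrol, a triterpenoid from the thunder god vine, for 7 h in medium with 1% serum. Each condition was measured on 1 Affymetrix array, so no test could be made and no value has an error. The effect of the compound cannot be told apart from that of the single culture or array. The labels used here do not say whether the cells were primary or a line.

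Cells keep separate sets of synthetases, one for the ribosomes of the cytosol and one, also encoded in the nucleus and imported, for the ribosomes of mitochondria. In mouse gene nomenclature the suffix 2 marks most of the mitochondrial enzymes. Gars and Kars encode the glycine and lysine enzymes of both compartments, and Eprs encodes a single protein that loads both glutamate and proline. Many cytosolic synthetase genes are known targets of ATF4, a transcription factor that is made when translation initiation is slowed under amino acid shortage or other stress, and that binds C/EBP-ATF response elements in promoters.

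The cytosolic enzymes as a group had higher transcript values with celastrol and the mitochondrial enzymes had slightly lower ones. The median difference, celastrol minus DMSO on the log2 scale, was 0.35 over the 18 cytosolic genes and -0.18 over the 16 mitochondrial genes, against -0.01 over the 13902 detected genes. A value 1.5-fold or more above that of DMSO was found in 8 of 18 cytosolic genes (Cars, Sars, Nars, Tars, Gars, Lars, Yars and Wars) and in 0 of 16 mitochondrial genes, beside 6.19% of the detected genes. In the other direction, 1.5-fold lower values were seen for Hars2 among the mitochondrial genes and for 0 cytosolic genes, beside 4.68% of the detected genes. The cytosolic set was not uniform, since 6 of its genes had the same or lower values with celastrol.

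Promoter sequences are shown for the genes whose windows hold the response element, with 2 genes without it for comparison. The windows, taken from RefSeq with build GRCm38.p6, cover 250 bases before and 50 bases after the start site, and 25 of the 34 measured genes had one. Cars, Hars, Lars, Nars, Rars, Vars, Wars, Hars2 and Pars2 had none. The search thus leaves out Cars, Nars, Lars and Wars, which were among the cytosolic genes at least 1.5-fold higher with celastrol. The letters searched were TGATGNAA on both strands, and a narrower form of the same element, TGATGCAA, every match of which is also a match of the first. Capitals mark a match, which reads TTGCATCA or TTTCATCA where it lies on the strand opposite to the gene, and positions are counted from the start site. In Gars (chr6:55037901-55038000, plus strand) and Tars (chr15:11399659-11399758, minus strand) the match lay in the 100 bases before the start site, at -30 to -23 and -15 to -8. The lysine enzyme gene Kars (chr8:112011355-112011454, minus strand) and the mitochondrial Tars2 (chr3:95754978-95755077, minus strand) are the examples without a match, shown over the same 100 bases. Both had lower values with celastrol (-0.14 and -0.24 on the log2 scale). Sars, which had no match either and stood at 0.95, is not printed.
Gars: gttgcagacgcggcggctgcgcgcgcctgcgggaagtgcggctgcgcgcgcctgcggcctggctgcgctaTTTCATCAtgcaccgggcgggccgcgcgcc
Tars: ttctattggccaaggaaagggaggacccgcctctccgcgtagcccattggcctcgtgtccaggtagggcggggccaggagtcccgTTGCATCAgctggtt
Kars: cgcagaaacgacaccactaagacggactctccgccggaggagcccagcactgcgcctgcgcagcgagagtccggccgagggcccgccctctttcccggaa
Tars2: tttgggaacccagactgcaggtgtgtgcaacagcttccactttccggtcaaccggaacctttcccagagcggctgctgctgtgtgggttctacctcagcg

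The other 2 genes with a match are shown as the 30 bases around it. Iars (chr13:49682126-49682155, plus strand) and Yars (chr4:129189895-129189924, plus strand) had theirs just after the start site, at 8 to 15 and 4 to 11. Of the 4 genes with a match, Yars alone had it on the strand of the gene itself.
Iars: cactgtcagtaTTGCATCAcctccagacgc
Yars: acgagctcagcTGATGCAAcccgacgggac

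The broader form was found for 4 of 11 measured cytosolic genes with a window (36.4%), for 0 of 14 mitochondrial genes, and for 4.51% of all 27025 genes with a window. The narrower form was found for 3 of these 11 genes (27.3%) and for 1.03% of all genes. Of these 11 genes, the 4 with a match (Tars, Gars, Yars and Iars) had differences from 0.32 to 0.73 on the log2 scale. The 7 without a match ran from -0.16 to 0.95, with Sars, the serine enzyme, at the top and the other 6 at or below the 0.27 of Eprs. A match describes letters in the window and was not tested as a binding site, and these windows leave out introns and more distant sequence.

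**Figure D1:**
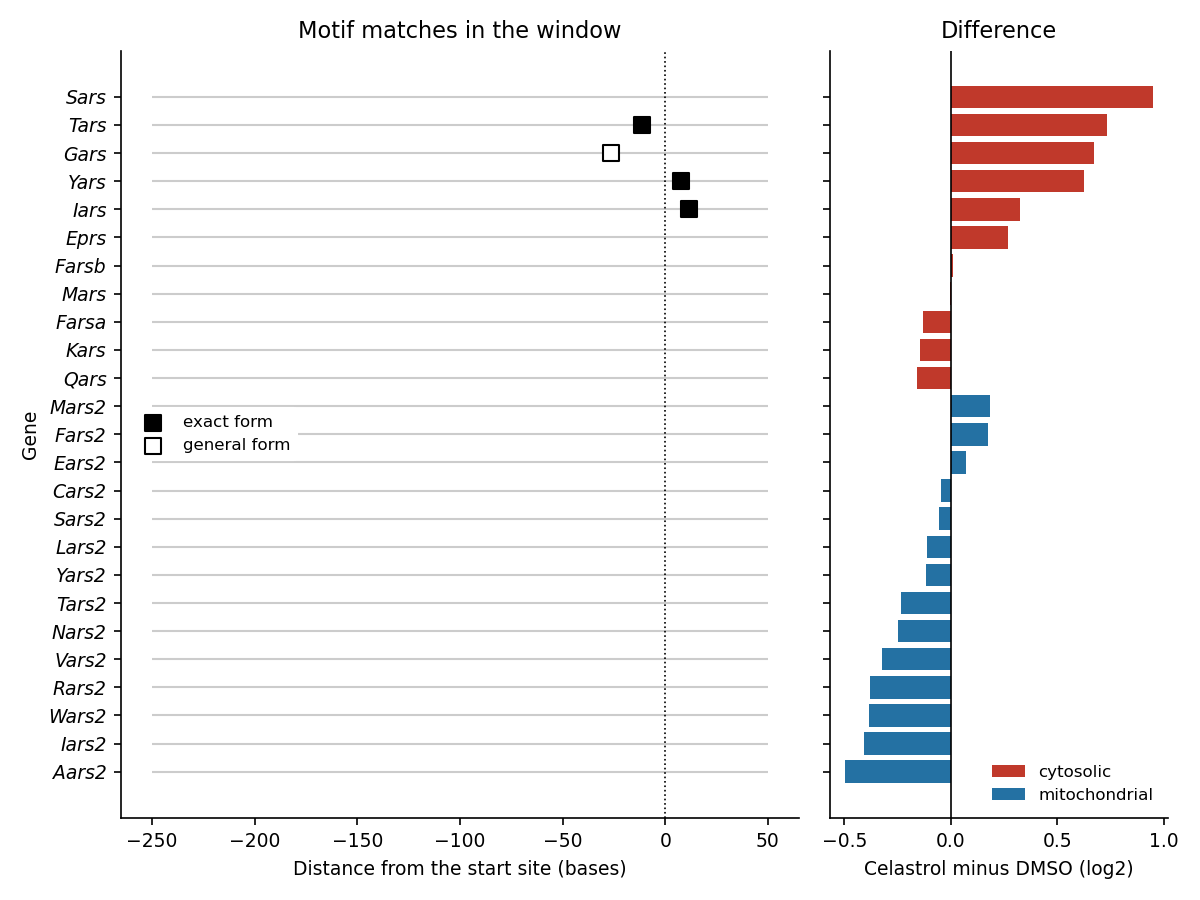
Left, position of each match (black squares, narrower form, white square, broader form only) within the promoter window of the 25 genes that had a window and a value, in bases from the start site. Right, bars of celastrol minus DMSO on the log2 scale, with cytosolic genes in red and mitochondrial genes in blue. The 4 genes with a match all stand above 0, as do 48.1% of the detected genes, while Sars, with the highest bar at 0.95, has none.

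Among the cytosolic enzymes that act outside the large synthetase complex, Cars, which loads cysteine, had the highest difference of all 34 genes. Its value was 9.33 under DMSO and 10.37 under celastrol, 2.05-fold higher, and it was the only member past 2-fold, beside 1.88% of the detected genes upward and 0.662% downward. In rank it stood at place 238 from the top of the 13902 detected genes. Sars, which loads serine onto its own transfer RNA and onto that for selenocysteine, was at 11.36 under DMSO and 12.31 under celastrol, 1.93-fold higher. For Nars, the asparagine enzyme, the values were 11.37 and 12.23, a 1.81-fold difference. These 3 genes lay above the other 15 cytosolic genes.

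A further 4 enzymes outside the complex lay close together, between 1.52-fold and 1.66-fold. Tars, the threonine enzyme, was at 10.56 under DMSO and 11.29 under celastrol, 1.66-fold higher. Gars, the glycine enzyme of both compartments, was at 11.78 and 12.45, 1.59-fold higher. Yars, which loads tyrosine, went from 10.56 to 11.19, 1.54-fold higher. Wars, the tryptophan enzyme, which interferon-gamma is also known to induce, had values of 9.85 and 10.46, 1.52-fold higher. Neighbours in this order differed by less than probe sets of one gene disagree, which had a median of 0.10 on the log2 scale over 761 genes.

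The remaining 4 enzymes outside the complex were flat or lower. Farsa and Farsb encode the alpha and beta subunits of the cytosolic phenylalanine enzyme, which works as a tetramer of both. Farsa was at 10.07 under DMSO and 9.94 under celastrol, and Farsb at 10.18 and 10.19, so that neither subunit shared the higher values. Hars, the histidine enzyme, was at 9.76 and 9.64. Vars, the valine enzyme, had the lowest difference of the cytosolic genes, with values of 11.06 and 10.72, 1.26-fold lower.

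The multi-synthetase complex holds 8 cytosolic enzymes together with 3 scaffold proteins. Over the 7 measured enzymes of the complex the median difference was 0.27, with 1 of 7 at least 1.5-fold higher, beside 6.19% of the detected genes. Over the 11 measured enzymes outside it the median was 0.62, with 7 of 11 at least 1.5-fold higher, and the other 4 (Farsb, Hars, Farsa and Vars) lay below the median of the complex. The difference between these groups was not tested. Lars, the leucine enzyme, known in human cells also as a leucine sensor for mTORC1, was the one past this fold within the complex, at 10.14 under DMSO and 10.78 under celastrol, 1.56-fold higher. Rars, the arginine enzyme, was at 11.69 and 12.07, 1.30-fold higher, and Iars, the isoleucine enzyme, at 11.79 and 12.12, 0.32 higher on the log2 scale. The second probe set of Iars gave 11.63 and 12.04, a difference of 0.40. Eprs was at 11.29 and 11.56, 1.21-fold higher.

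The other 3 measured enzymes of the complex were not higher with celastrol. Mars, which loads methionine for initiation and elongation, barely differed (10.23 under DMSO and 10.22 under celastrol), and the sign of its difference turned positive under each of the 3 other scalings of the arrays. Kars, the lysine enzyme of both compartments, was at 11.55 and 11.41, 1.10-fold lower. Qars, the glutamine enzyme, was at 10.42 and 10.26, 1.11-fold lower. Both enzymes that serve the mitochondrion and the cytosol from 1 gene were thus measured, and they went opposite ways, Gars at 0.67 and Kars at -0.14 on the log2 scale.

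**Figure D2:**
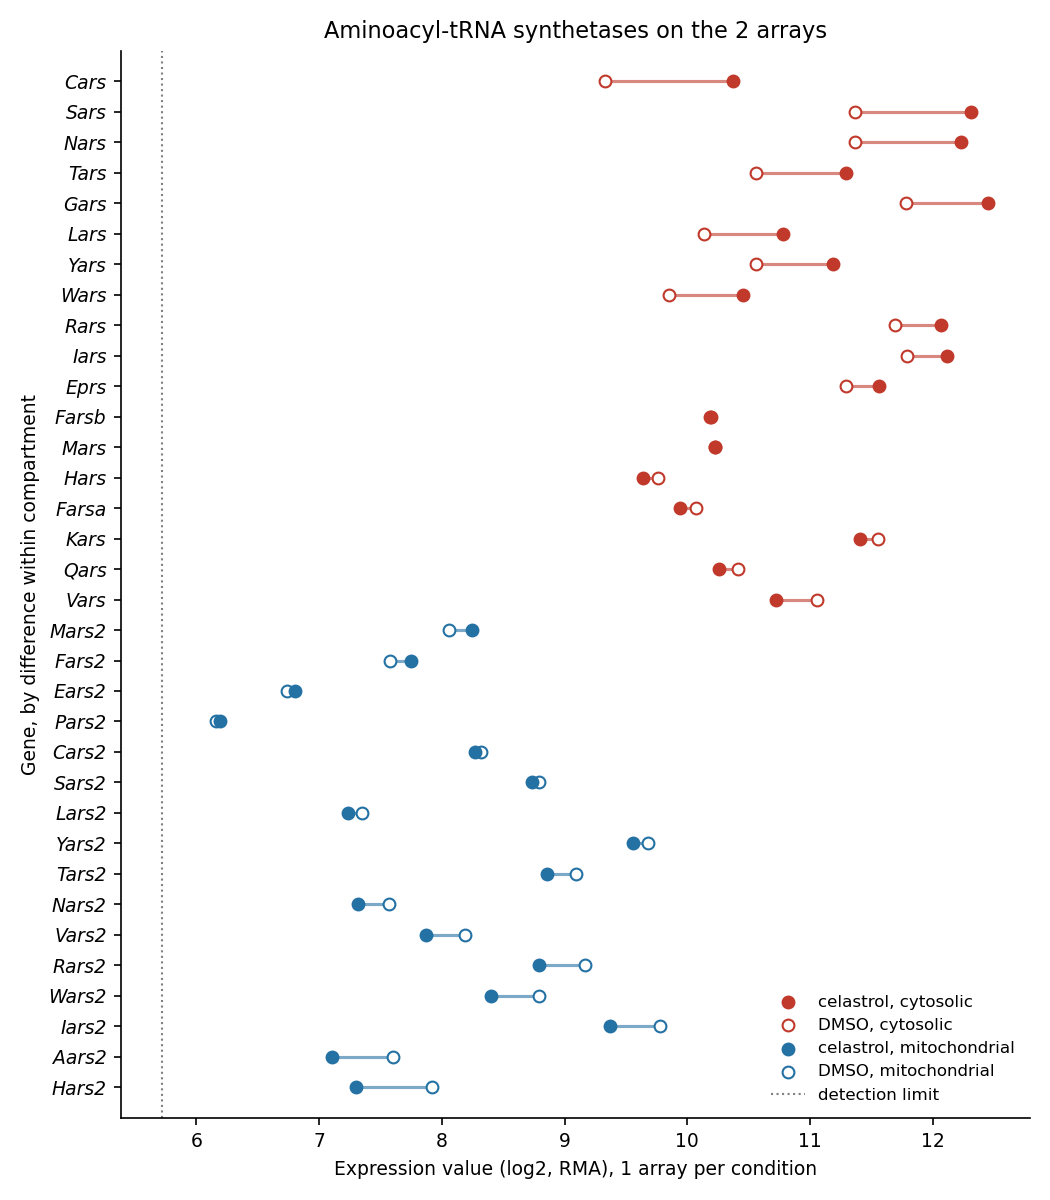
Expression value on the log2 scale (horizontal axis) of each measured synthetase gene with DMSO (open circles) and celastrol (filled circles), 1 array per condition, with cytosolic genes in red and mitochondrial genes in blue, ordered by difference within each compartment. The filled circle lies to the right for Cars, Sars and Nars by the widest margins and to the left for Hars2 and Aars2, and all values lie above the detection limit of 5.73 (dotted line).

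Among the mitochondrial enzymes 12 of 16 had lower values with celastrol and 4 higher, where 51.9% of the detected genes were lower and 48.1% higher. With a lowess trend over signal removed, 10 of 16 were lower, because Cars2 and Sars2 moved to 0.01 and 0.00, and 13 of 18 cytosolic genes were higher in place of 12. Hars2, the mitochondrial histidine enzyme, had the lowest difference of all, with 7.92 under DMSO and 7.31 under celastrol, 1.53-fold lower, and with the lowess trend removed it fell short of 1.5-fold (-0.57 on the log2 scale). Aars2, the alanine enzyme, followed at 7.60 and 7.11, 1.41-fold lower. Both lay below the central 95% of differences of 1210 olfactory and vomeronasal receptor probe sets, which ran from -0.42 to 0.41. The other 14 mitochondrial genes lay inside that range. From the bottom of the 13902 detected genes Hars2 stood at place 575 and Aars2 at place 982. Iars2, just inside the range, stood at place 1521, so many other detected genes lay below the range too. Most of these receptor values lie below the detection limit, which was set from them, so the range is not matched to the signal of the synthetase genes.

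The next mitochondrial genes lay between -0.41 and -0.32 on the log2 scale, with no clear break from Aars2 (-0.50) on one side or Nars2 (-0.25) on the other. Iars2, the isoleucine enzyme, was at 9.78 under DMSO and 9.37 under celastrol. Wars2, the tryptophan enzyme, was at 8.79 and 8.40, and Rars2, the arginine enzyme, at 9.17 and 8.79. Vars2, the valine enzyme, was at 8.19 and 7.87, just short of 20% lower. Values at least 20% lower were seen for 5 of the 16 genes, beside 16.0% of the detected genes, and values at least 25% higher, the same fold upward, for 0 of 16, beside 14.8%. The share of lower genes at this threshold is thus above that of all genes, at a size of difference that the receptor probe sets also reach.

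The rest of the mitochondrial set stayed nearer to 0. Nars2 and Tars2, for asparagine and threonine, stood at -0.25 and -0.24 on the log2 scale, and Yars2 and Lars2, for tyrosine and leucine, both at -0.11. Sars2 stood at -0.06 and Cars2 at -0.05, for serine and cysteine, whose cytosolic counterparts had the 2 highest differences of the whole set. Of the higher genes, Mars2, the methionine enzyme, was at 8.06 under DMSO and 8.24 under celastrol, and Fars2, which loads phenylalanine as a single chain, at 7.58 and 7.75. Ears2, for glutamate, stood at 0.07, and Pars2, for proline, at 0.03. Pars2 had values of 6.17 and 6.20, close to the detection limit, where RMA compresses differences.

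**Figure D3:**
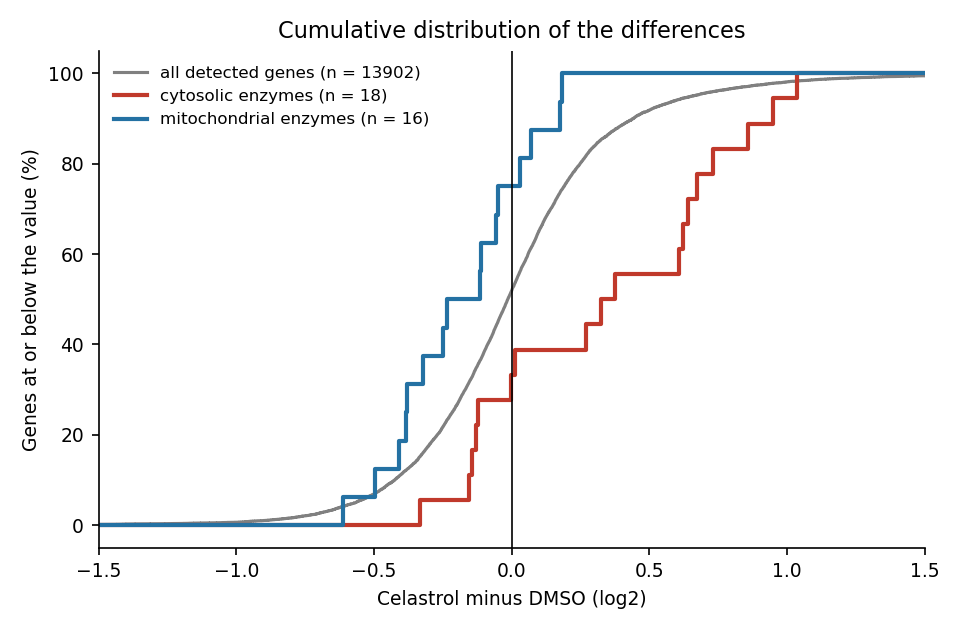
Share of genes (vertical axis, percent) at or below each difference, celastrol minus DMSO on the log2 scale (horizontal axis), for all 13902 detected genes (grey), the 18 cytosolic enzymes (red) and the 16 mitochondrial enzymes (blue). The red curve lies to the right of the grey one over most of its range and the blue curve to the left, with medians of 0.35, -0.01 and -0.18.

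The compartments overlapped in part. On the log2 scale 11 of 18 cytosolic genes lay above the highest mitochondrial gene, Mars2 (0.18). Below the lowest cytosolic gene, Vars (-0.33), lay 5 of 16 mitochondrial genes. Among the 13902 detected genes Mars2 stood at place 3553 from the top and Vars at place 2111 from the bottom. Many other genes thus lay past them as well. The medians of the compartments differed by 0.52. The mean value of both arrays ran from 9.70 to 12.12 over the cytosolic genes and from 6.18 to 9.62 over the mitochondrial genes, levels that cannot be compared between probe sets. These ranges do not overlap. Detected genes within each of them had a median difference of -0.03 in either case (2930 genes in the cytosolic range and 8432 in the mitochondrial one). Their tails were not alike. At least 1.5-fold higher were 267 of the 2930 and 518 of the 8432, and at least 1.5-fold lower were 160 and 448. The part of signal level in the gap was not tested beyond this. With the lowess trend over signal removed, which takes out a shift but not a difference in spread, the gap was likewise 0.52.

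Setting enzymes for the same amino acid side by side gave the same picture with exceptions. Of 16 such pairings, 12 had the higher difference on the cytosolic side. In 9 of these the cytosolic gene was higher with celastrol and the mitochondrial gene lower. Of the detected genes, 48.1% were higher and 51.9% lower. The pairings reuse the differences behind the compartment medians and add no separate evidence. Eprs enters 2 pairings and Fars2 2, so the pairings are not independent, and they share the same 2 arrays. The median gap, cytosolic minus mitochondrial, was 0.73 on the log2 scale. Asparagine had the widest gap, with Nars at 0.86 and Nars2 at -0.25. It was followed by cysteine with a gap of 1.08, serine with 1.01, tryptophan with 0.99 and threonine with 0.97.

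The exceptions were valine, methionine and phenylalanine. Vars and Vars2 were both lower by nearly the same amount, -0.33 and -0.32. For methionine the mitochondrial gene was the higher one, Mars2 at 0.18 against Mars at 0.00. Fars2 stood at 0.17 against -0.13 for Farsa and 0.01 for Farsb. Histidine had lower values in both compartments, Hars at -0.12 and Hars2 at -0.61. In glutamate and proline all 3 genes were above 0, with gaps of 0.20 and 0.24.

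**Figure D4:**
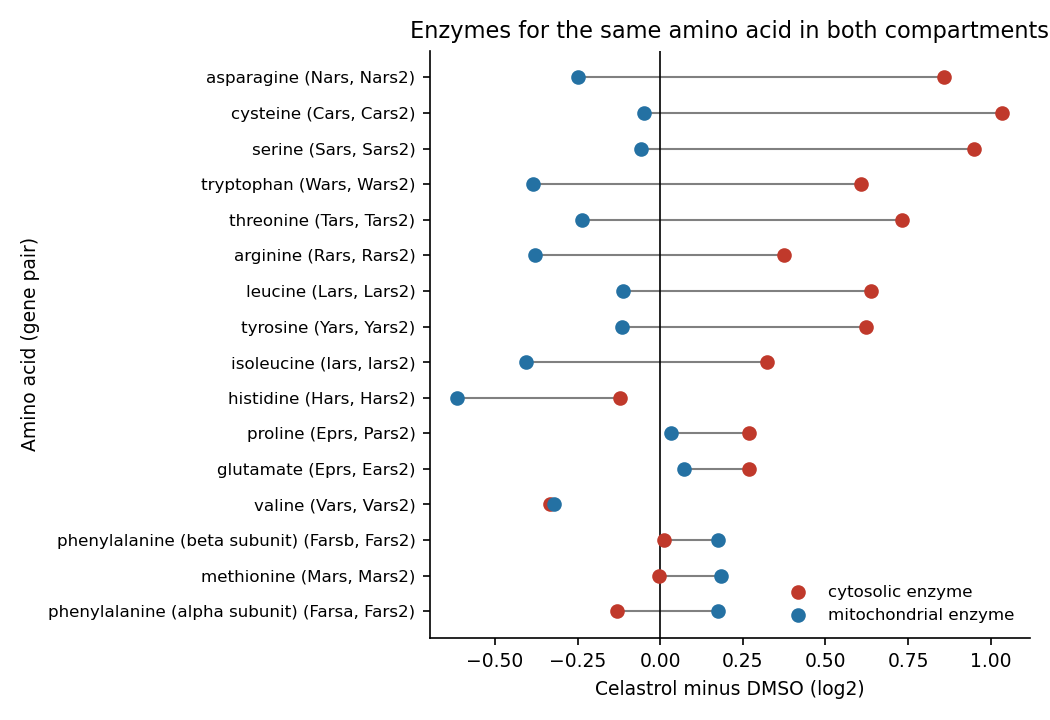
Celastrol minus DMSO on the log2 scale (horizontal axis) for the cytosolic gene (red) and the mitochondrial gene (blue) that load the same amino acid, joined by a line and ordered by the gap. The red point lies to the right in the upper 12 pairings, and in the lowest 4 (valine, phenylalanine with either subunit, and methionine) it lies to the left or beside the blue one.

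The structural class of the enzyme did not separate the genes. Synthetases fall into class I and class II by the fold of their catalytic domain, and Eprs holds a domain of each. Among cytosolic enzymes the median difference was 0.38 for the 9 genes of class I and 0.34 for the 8 measured genes of class II. In each class 4 genes were at least 1.5-fold higher, beside 6.19% of the detected genes. Mitochondrial enzymes of class I had a median of -0.11 over 9 genes and those of class II -0.24 over 7 genes.

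Genes that act beside the synthetases in loading transfer RNA went both ways. Of 14 measured partner genes 11 were lower, beside 51.9% of the detected genes, and 3 higher, with a median of -0.17. By 1.5-fold or more, 1 was higher and 2 were lower, beside 6.19% and 4.68% of the detected genes. With the lowess trend removed 10 were lower. Xpot, the exportin that carries transfer RNA out of the nucleus, was the one higher gene past this fold, at 10.42 under DMSO and 11.08 under celastrol, 1.58-fold. The scaffold proteins of the synthetase complex did not move together, with Aimp2 at 10.63 and 9.98, 1.57-fold lower, while Aimp1 stood at -0.04 and Eef1e1 at 0.08 on the log2 scale. Dtd1, a deacylase that clears D-amino acids from transfer RNA, was at 9.04 and 8.35, 1.62-fold lower, and its relative Dtd2 stood at -0.29.

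The other partners differed by less than 1.5-fold. Gatb, Gatc and Qrsl1, the subunits of the amidotransferase that makes glutamine-loaded transfer RNA in mitochondria, stood at -0.19, -0.26 and -0.05. Pstk and Sepsecs, which act in turn to make selenocysteine on the transfer RNA that Sars has loaded with serine, stood at -0.43 and -0.15. Mtfmt, which formylates the methionine-loaded initiator of mitochondria, stood at -0.13 and Aarsd1, an editing protein related to the alanine enzyme, at 0.06. Tarsl2, a cytosolic relative of the threonine enzyme, stood at -0.30, whereas Tars itself stood at 0.73. Ptrh2 was not analysed here.

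Elongation and mitochondrial translation factors had medians near 0. Over 5 genes of the cytosolic elongation list the median was 0.03 and 0 were past 25% higher or 20% lower. Eef2, the translocase, was at 0.11, Eef1e1 at 0.08, Eef1a1 at 0.03, Eef1b2 at 0.01 and Eef1d at -0.13. Eef1e1, a scaffold protein of the synthetase complex, and Mtfmt, in the mitochondrial list, are also counted among the partner genes. Over 10 mitochondrial translation factors the median was -0.02, a sign that turned with the lowess trend removed (0.00), and 1 gene was at least 25% higher and 0 at least 20% lower, beside 14.8% and 16.0% of the detected genes. That gene was Mtif2, an initiation factor, at 0.36, followed by Mtrf1l, a release factor, at 0.30 and Gfm1, an elongation factor, at 0.19. The lowest were Mtif3 (-0.23), an initiation factor, and Gfm2 (-0.17), a recycling factor.

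Known ATF4 targets outside the synthetase family are set beside the synthetases as a description. All 29 measured genes of such a list were above 0 and 22 were past 1.5-fold, beside 48.1% and 6.19% of the detected genes. The list's median was 0.93 on the log2 scale, and 28 of the 29 were detected. Earlier results of these arrays were known when that list was drawn up, so neither its direction nor its size is independent evidence. The highest were Slc7a11 (3.15), the cystine transporter subunit, Chac1 (2.54), which degrades glutathione, and Trib3 (2.15), a pseudokinase. The lowest were Phgdh (0.28), the entry enzyme of serine synthesis, and Slc7a3 (0.39), a cationic amino acid transporter below the detection limit in both arrays. Asns, the asparagine synthetase of the amino acid pathway, stood at 0.80 beside the 0.86 of Nars, which loads the product. Cars, at 1.04, and Sars, at 0.95, lay a little above the median of the list, and the other 6 synthetases past 1.5-fold lay from 0.61 to 0.86.

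**Figure D5:**
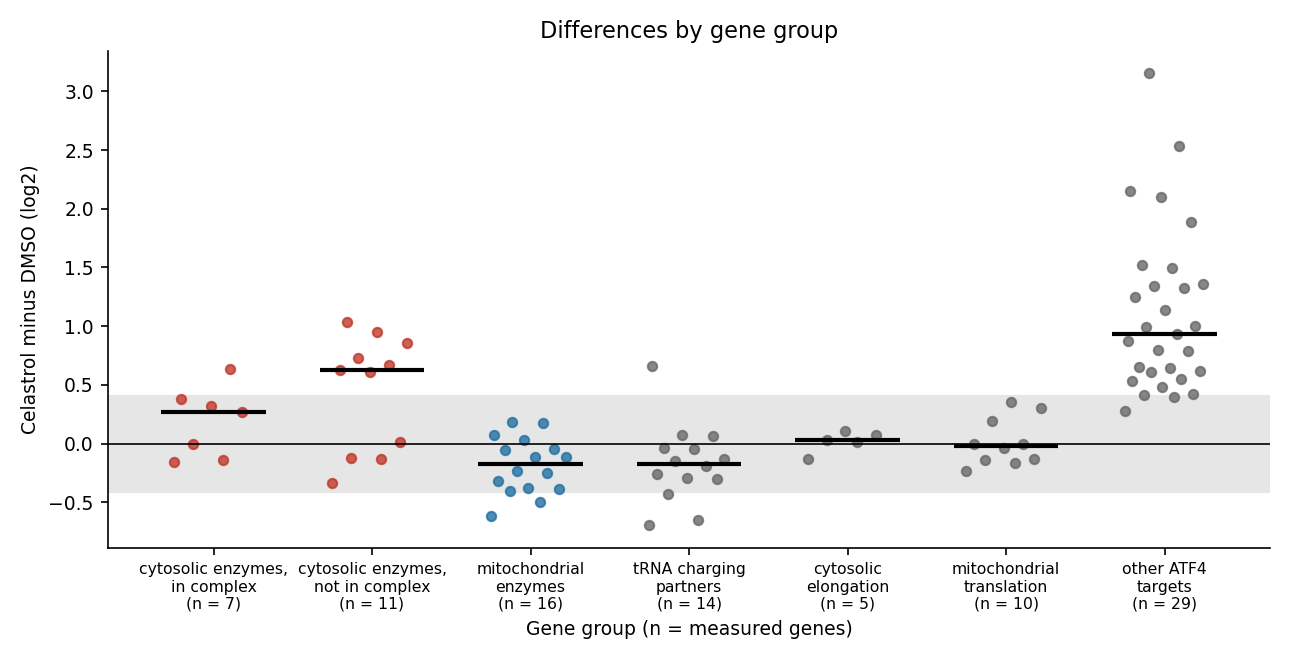
Celastrol minus DMSO on the log2 scale (vertical axis) for each measured gene (points) of 7 groups, with the group median as a black bar and the central 95% of the receptor probe sets as a grey band. The medians are 0.27 for cytosolic enzymes in the complex and 0.62 for those outside it, and the mitochondrial enzymes (-0.18) lie mostly inside the band. The other ATF4 targets (0.93) were listed with earlier results of these arrays known.

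Of 13 fibroblast markers 12 were detected, where 69.7% of all genes were, so that detection alone hardly sets the label apart. Vim, Fn1 and Prrx1 were brightest (differences of 0.09, 0.05 and -0.34), and Lum was not detected. The list had a median of -0.16, with 9 of 13 genes lower, beside 51.9% of the detected genes. Among the lower ones were S100a4 (-0.88), Col1a1 (-0.46), Col1a2 (-0.42) and Pdgfrb (-0.41). The 4 higher ones were Twist1 (0.48), Pdgfra (0.27), Vim and Fn1. In a culture measured as a whole, fewer cells of a type and less RNA per cell cannot be told apart. Detected markers of other cell types were 3 of 9 for macrophages and leukocytes (Cd68 at 1.47, Cd14 at 0.71 and Csf1r at 0.26), while Ptprc, Adgre1 and Itgam were below the limit. They were 4 of 6 for endothelium (Vwf, Eng and Tie1 brightest, median of the list 0.11), 4 of 5 for epithelium (Krt8, Krt18 and Cldn4, median 0.01), 4 of 5 for muscle (Tnnt2 at 0.87, Myod1 at 0.34 and Actn2 at 0.08, median 0.32) and 4 of 5 for nerve (Nes, Map2 and Tubb3, median 0.22). The part of these marker differences in the synthetase values was not tested.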

How the data were processed

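The deposited table holds log2 values per probe set. RMA (background correction, quantile normalization and a summary per probe set) is the tool that the submitters' processing notes name, without version or settings. Whether further arrays were normalized together is not stated there. The base of the logarithm was read from the range of values, 2.73 to 14.5.

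Of 35556 probe sets, 21797 named 1 gene in GEO's platform annotation, 1613 named several and 12146 none. Those naming 1 gene were used, the brightest of a gene standing for it. A gene was detected if either array exceeded 5.73, the 95th percentile of 1210 receptor probe sets, and all 34 synthetase genes did so in both arrays. Differences are celastrol minus DMSO, and folds are 2 raised to their size. With 1 array per group no test was run, and the number of arrays limits the precision. Gene symbols follow RefSeq tables for GRCm38.p6. Genomic coordinates are those of the RefSeq promoter windows only.

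Named genes are every measured synthetase and partner gene, the 3 highest and 2 lowest of the other context lists, and the 3 brightest markers of each cell type. Further genes of the elongation and ATF4 lists and further markers were chosen after their values were seen. The members, lists and motifs were chosen with earlier results of these data known. Alternatives were quantile normalization, median or lowess (fraction 0.3) centring, the mean of probe sets, other detection limits, and thresholds of 25% higher (20% lower) and 2-fold. For the compartment medians they were also the mean over genes, leaving out Gars and Kars, and only genes whose counterpart in the other compartment was measured. The steps were tested on simulated data. The software was Python 3.11.15 with numpy 2.4.6, statsmodels 0.14.6, pandas 2.3.3 and matplotlib 3.10.9.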

Additional observations from a re-analysis of the deposited data

Results flagged for a closer look

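One probe set outside the counts carried a signal. The probe set that names Aars, the cytosolic alanine enzyme, together with Exosc6, a subunit of the RNA exosome, was at 10.80 with DMSO and 11.52 with celastrol, a difference of 0.72 on the log2 scale (1.65-fold higher). Which of these genes gives the signal was not tested. Groups of 1 array allow no check for a sample that stands apart.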

How the results depend on the processing

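Another detection limit cannot move a single gene's difference, and the mean of probe sets can move only that of Iars. The 102 recalculations of single genes under the 3 other scalings moved by at most 0.06 on the log2 scale, less than the median disagreement of 0.10 between probe sets of one gene. The sign turned in 5 of them, for Mars, Cars2 and Sars2, each within 0.06 of 0. Across the alternatives the cytosolic median ran from 0.35 to 0.40, the mitochondrial one from -0.24 to -0.11, and the gap between them from 0.49 to 0.59. The ends -0.11 and 0.49 came from using only genes whose counterpart in the other compartment was measured. With means in place of medians the values were 0.345 and -0.185, with a gap of 0.53. The median detection limit left out Pars2. The count of cytosolic genes 1.5-fold higher stayed at 8 except that it was 10 at 25% higher and 1 at 2-fold, by construction. The 1 mitochondrial gene 1.5-fold lower, Hars2, fell just short with the lowess trend removed (-0.57, count 0), and the count was 5 at 20% lower and 0 at 2-fold. Over all detected genes, 860 higher and 651 lower at 1.5-fold became 2064 (25% higher) and 2229 (20% lower) and 262 and 92 at 2-fold. No paired analysis was possible because each group has 1 array. Without replicates, none of these ranges contains the variation between cultures, and signal near background limits Pars2 and Ears2.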
